A study of Mus musculus with 6 samples.

Results

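The annexin and formyl peptide receptor genes were followed in mouse macrophages that carry a dimerization mutant of the glucocorticoid receptor. The set holds 10 of the 23235 genes in the authors' deposited table, namely 8 annexins (Anxa1, Anxa2, Anxa3, Anxa4, Anxa5, Anxa6, Anxa7 and Anxa11) and 2 receptors (Fpr1 and Fpr2), each found by its symbol. The macrophages were grown from bone marrow of animals homozygous for GRdim, so both groups carry the mutant receptor. In the LPS group, 3 samples were given lipopolysaccharide (LPS), a bacterial cell wall component, for 6 h. In the LPS+Dex group, 3 samples were also given the synthetic glucocorticoid dexamethasone (Dex) at 1 µM overnight before the LPS. Neither wild-type macrophages nor unstimulated cells are part of the comparison, so each change is that of Dex in mutant cells under LPS.

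Annexins are cytosolic proteins that bind acidic phospholipids when calcium rises, and so attach to the plasma membrane, endosomes and granules. Annexin A1, first known as lipocortin, is the member tied most closely to glucocorticoids: it restrains phospholipase A2 and, once outside the cell, signals through the formyl peptide receptors to limit neutrophil entry and favour resolution of inflammation. The formyl peptide receptors are G-protein-coupled receptors on myeloid cells that sense N-formylated peptides from bacteria and mitochondria, and Fpr2 is the main receptor of annexin A1.

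The table holds 1 FPKM value per gene and group (fragments per kilobase, a level corrected for transcript length and library total) and none per sample, so neither the spread of a level nor the overlap of the groups can be given. Its test was run on 11755 genes, all 10 members among them. A gene was called higher or lower in LPS+Dex where the deposited q was under 0.05. The standard error (SE) given beside each log2 fold change is that change divided by the deposited test statistic, without its sign, and the 95% intervals rest on it. Whether separate animals or cultures gave the 3 samples is not in the labels, so the error behind the test may be technical. Sequencing depth is unknown, since the table holds no counts. In bulk RNA fewer cells of a type and less RNA per cell cannot be told apart.

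With Dex, both receptor genes and Anxa3 rose, 5 annexins fell, and Anxa1 and Anxa6 did not pass the test. Fpr1 rose most, from 33.1 to 44.3 FPKM, and Anxa2 fell most, from 771 to 589 FPKM, by the authors' deposited table. All changes were modest, and none of the 10 reached 1.5-fold. Of the 10 genes 8 were called, 3 higher and 5 lower. Among all tested genes 42.9% were called, 17.7% higher and 25.2% lower. The members are abundant, however, and abundant genes were called lower more often. Of the 2305 tested genes with at least 30 FPKM in a group, a limit set after the values were seen, 62.6% were called, 12.1% higher and 50.5% lower. The 5 lower calls among 10 thus equal the share of abundant genes, and nothing particular to the members is read from them. The members' median log2 fold change was −0.065, against −0.011 for all tested genes and −0.13 for those with at least 30 FPKM.

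In level, the 10 genes spanned from 30.8 to 1003 FPKM. Anxa1 stood first among them and at rank 37 of all genes in the table by the mean of both groups. Anxa2 followed at rank 70 and Anxa5 at rank 113. Anxa4 (rank 230), Fpr2 (rank 363) and Anxa3 (rank 502) came next, then Anxa7 (rank 759) and Anxa6 (rank 783). Fpr1 (rank 1793) and Anxa11 (rank 2061) were lowest. The order was the same in both groups except at 2 places: Anxa7 was above Anxa6 in LPS and below it in LPS+Dex, and Anxa11 was above Fpr1 in LPS and below it in LPS+Dex. The error of a level is not known here, so neighbours in this order were not tested against each other. The ranks among all genes use the listed values, also 0 for Lyz2, which had too many fragments to process. They may therefore stand too near the top.

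**Figure D1:**
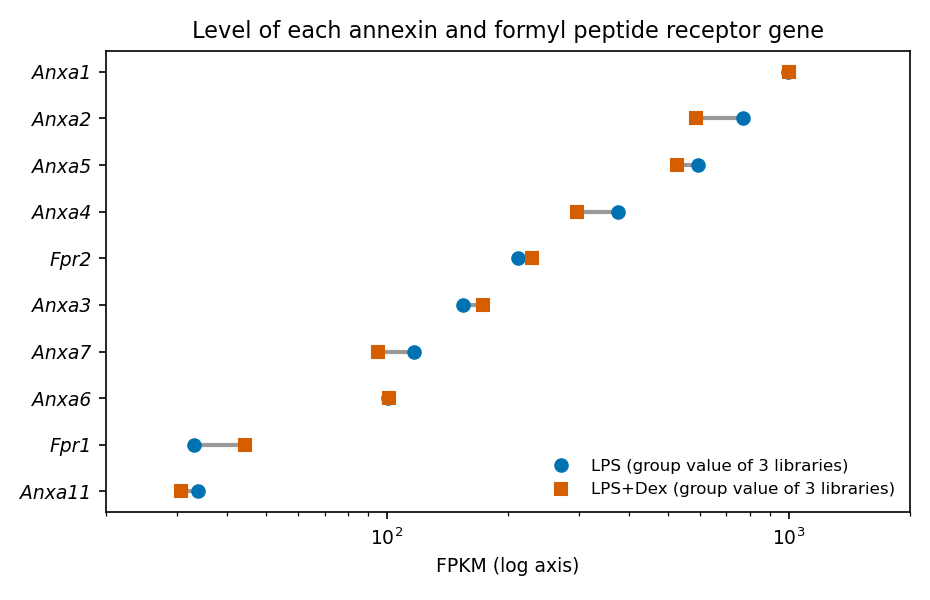
FPKM (log axis) of each of the 10 genes in the LPS group (circles) and the LPS+Dex group (squares), 1 deposited value per group of 3 samples, joined by a line. Fpr1 moves from 33.1 to 44.3 and Anxa2 from 771 to 589, while the points of Anxa1 and Anxa6 lie on each other.

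Anxa1 (chromosome 19, 20447923 to 20465161, mm9 as listed in the authors' deposited table) encodes the ligand of the set. It stood at 994 FPKM in LPS and 1003 FPKM in LPS+Dex, a log2 fold change of 0.012 (SE 0.067, q = 0.907). The 95% interval of the change ran from −7.87% to 10.4%, so a rise beyond 1.10-fold lies outside it. The most abundant tested genes tended to be lower with Dex, with a running median of −0.19. The same median was used for Anxa4, at 376 FPKM in LPS, so it is not specific to the level of Anxa1. With that trend on expression level removed, Anxa1 was at 0.20 and was called higher at an adjusted threshold of 0.05. Its call therefore turned on whether the change was read against 0 or against genes of like abundance. The share of Anxa1 in the summed FPKM of the 8 annexins was 31.7% in LPS and 35.6% in LPS+Dex, as the sum went from 3140 to 2816 FPKM.

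Both receptor genes rose. Fpr1 (chromosome 17, 18013434 to 18020903, mm9), which encodes the high-affinity receptor for bacterial formyl peptides, went from 33.1 to 44.3 FPKM in the authors' deposited table, a log2 fold change of 0.42 (SE 0.052, q = 1.07e-14). Its 1.34-fold rise, with a 95% interval from 1.25 to 1.44, was the largest of the set. Fpr2 (chromosome 17, 18024787 to 18030916, mm9), whose product binds annexin A1, went from 212 to 229.8 FPKM, a log2 fold change of 0.12 (SE 0.049, q = 0.0377). That is a 1.09-fold rise with an interval from 1.02 to 1.16, and it was lost at a q of 0.01 and with Bonferroni adjustment. With the trend on expression level removed, both were called higher, Fpr1 at 0.51 and Fpr2 at 0.31. Fpr1 rose more than Fpr2, by 0.30 on the log2 scale (95% interval 0.16 to 0.44, taking the errors of the 2 genes as independent). Fpr2 remained the more abundant receptor transcript, at 6.40 times the FPKM of Fpr1 in LPS and 5.19 times in LPS+Dex.

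The level of Fpr2 is less certain than that of Fpr1, because its transcript resembles others. Of the stretches of 50 bases in its longest coding transcript (GENCODE M21), 37.2% also occur in a transcript of another gene, mostly the pseudogene Gm5966. For Fpr1 the share was 0.0784%. The sources used here do not give how the authors' counting assigned reads that match several genes. Other genes of the receptor family were scarce. Fpr3 was not called at 0.133 and 0.109 FPKM (log2 −0.29, SE 0.59, q = 0.741), Fpr-rs4 was too low for a test at 0.00987 and 0.00411 FPKM, and Fpr-rs3 and Fpr-rs6 were listed at 0 in both groups of the authors' deposited table.

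**Figure D2:**
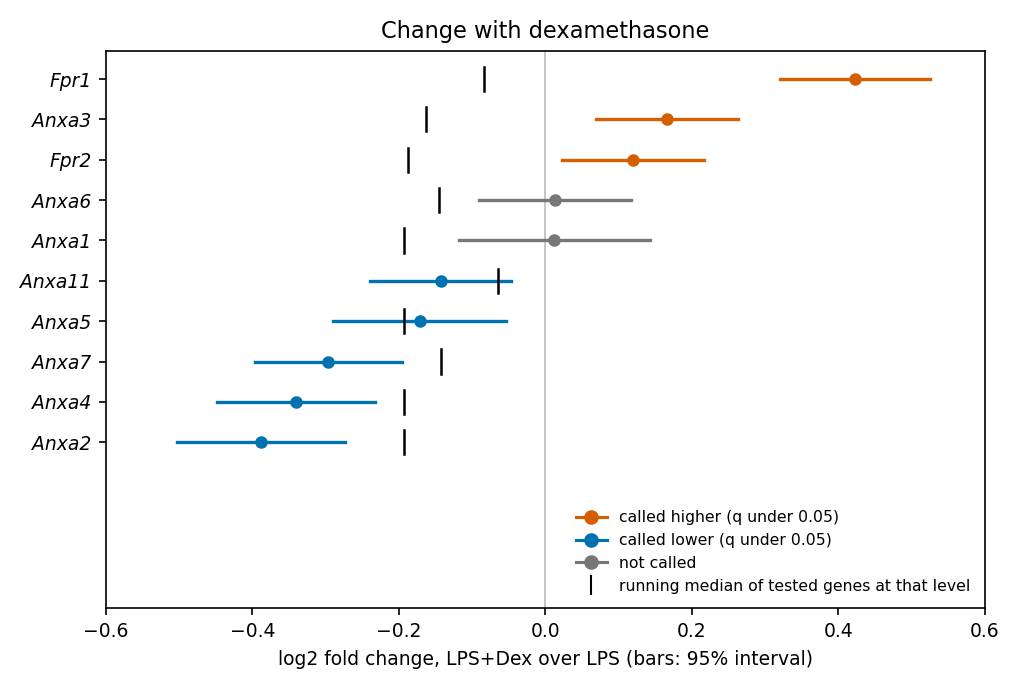
Log2 fold change of LPS+Dex over LPS for each gene (points) with its 95% interval from the implied SE (bars), coloured by the deposited call. Black ticks give the running median of tested genes by level, which is the same for Anxa1, Anxa2, Anxa4 and Anxa5. Fpr1, Anxa3 and Fpr2 lie above 0, Anxa2, Anxa4, Anxa7, Anxa5 and Anxa11 below it, and Anxa5 lies on the tick of its level, at 0.021 above it once the trend is removed.

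The 2 receptor genes lie next to each other and point away from each other, with 3884 bases between them in the mm9 coordinates of the table. Their upstream sequences are shown because they are the neighbours that rose together, beside that of Anxa1, whose call depended on the trend. Each runs 5′ to 3′ on the gene's strand over the 250 bases before the start (RefSeq, GRCm38.p6), at chr17:17883940-17884189 (minus strand) for Fpr1, chr17:17887574-17887823 (plus strand) for Fpr2 and chr19:20390672-20390921 (minus strand) for Anxa1. Capitals mark AGAACA, the core bound by a single glucocorticoid receptor (GR) unit, and TATAAA, the TATA box, on either strand.
Fpr1: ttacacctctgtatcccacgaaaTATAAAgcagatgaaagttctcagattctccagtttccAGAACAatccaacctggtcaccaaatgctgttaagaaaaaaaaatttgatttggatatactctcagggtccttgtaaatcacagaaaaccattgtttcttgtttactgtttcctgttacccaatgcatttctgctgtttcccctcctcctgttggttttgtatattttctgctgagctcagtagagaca
Fpr2: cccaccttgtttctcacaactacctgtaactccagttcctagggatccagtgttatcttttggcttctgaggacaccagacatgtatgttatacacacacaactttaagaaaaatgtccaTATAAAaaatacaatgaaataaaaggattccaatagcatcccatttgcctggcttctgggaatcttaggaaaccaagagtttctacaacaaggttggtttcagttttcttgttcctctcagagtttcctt
Anxa1: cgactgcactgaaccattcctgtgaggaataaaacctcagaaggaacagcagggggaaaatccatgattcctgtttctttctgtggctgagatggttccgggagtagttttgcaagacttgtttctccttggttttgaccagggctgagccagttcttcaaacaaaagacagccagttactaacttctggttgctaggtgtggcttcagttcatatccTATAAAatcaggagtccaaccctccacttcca
Fpr1 holds AGAACA once, 189 bases before its start. The same letters, on either strand, occur in 16.1% of all 32851 promoter windows of this length, so the match is common. Neither the Fpr2 nor the Anxa1 window holds it. The full palindrome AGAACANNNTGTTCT, the form bound by a receptor dimer, occurs in none of the windows found for 8 of the members and in 0.00913% of all windows. TATAAA lies 32 bases before the start of Anxa1, 227 before that of Fpr1 and 130 before that of Fpr2, and occurs in 12.4% of all windows. These matches describe letters in short windows and do not locate receptor binding.

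Among the other annexins, Anxa2 fell most. Anxa2 (chromosome 9, 69301489 to 69339592, mm9) encodes the subunit that joins the S100a10 protein in a complex at the cell surface, where it binds plasminogen and its activator. It went from 771 to 589 FPKM in the authors' deposited table (log2 −0.39, SE 0.059, q = 2.82e-10), so that it fell by 23.6%, and was still called lower with the trend removed (−0.20). The transcript of its partner S100a10 did not pass, at 431 and 402 FPKM (log2 −0.099, SE 0.048, q = 0.0853). S100a10 exceeded Anxa2 in log2 fold change by 0.29 (95% interval 0.14 to 0.44), and the ratio of Anxa2 to S100a10 FPKM was 1.79 in LPS and 1.47 in LPS+Dex. Anxa1 likewise exceeded Anxa2 in log2 fold change, by 0.40 (95% interval 0.23 to 0.57), and the ratio of Anxa1 to Anxa2 FPKM went from 1.29 to 1.70.

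Anxa4 and Anxa7 fell by similar amounts. Anxa4 (chromosome 6, 86686833 to 86743578, mm9), which binds membranes and is studied mainly in secretory epithelia, went from 376 to 297 FPKM in the authors' deposited table (log2 −0.34, SE 0.055, q = 5.43e-09). Anxa7 (chromosome 14, 21274482 to 21299355, mm9), or synexin, which aggregates secretory granules, went from 117 to 94.9 FPKM (log2 −0.30, SE 0.051, q = 5.03e-08). Both stayed lower with the trend removed, at −0.15 for each.

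The falls of Anxa5 and Anxa11 were smaller and depended on the scale. Anxa5 (chromosome 3, 36347845 to 36374809, mm9), whose protein binds the phosphatidylserine exposed by dying cells, went from 593 to 527 FPKM in the authors' deposited table (log2 −0.17, SE 0.060, q = 0.0119). With the trend removed it was at 0.021, of the opposite sign, and not called. Anxa11 (chromosome 14, 26661640 to 26706290, mm9), which ties RNA granules to lysosomes and binds S100a6, went from 34.0 to 30.8 FPKM (log2 −0.14, SE 0.049, q = 0.0106). With the trend removed it was at −0.078 and not called. Of the stretches of 50 bases in the Anxa11 transcript, 26% occur in another gene, mostly the pseudogene Gm2260, so its level is uncertain in the same way as that of Fpr2. Exons of Anxa11, Anxa2 and Anxa4 also overlap genes on the opposite strand, by 113, 98 and 75 bases, and exons of Anxa3 and Fpr2 overlap a gene on the same strand by 112 and 48 bases (GENCODE M21). The libraries were stranded per the labels, but whether the counting used the strand is not known here.

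Anxa3 was the annexin that rose. Anxa3 (chromosome 5, 97222403 to 97274987, mm9), which is found with granules of human neutrophils, went from 155 to 174 FPKM in the authors' deposited table (log2 0.17, SE 0.049, q = 0.00245), a rise of 12.2%. It exceeded Anxa2 in log2 fold change by 0.55 (95% interval 0.40 to 0.70). The trend removed left it higher, at 0.33, while Bonferroni adjustment ended its call. Anxa6 (chromosome 11, 54792463 to 54846973, mm9), a long annexin with a duplicated core that acts on endosomal cholesterol, did not pass at 101 and 102 FPKM (log2 0.013, SE 0.053, q = 0.872). Its interval ran from −6.07% to 8.46%, and with the trend removed it was called higher at 0.16.

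**Figure D3:**
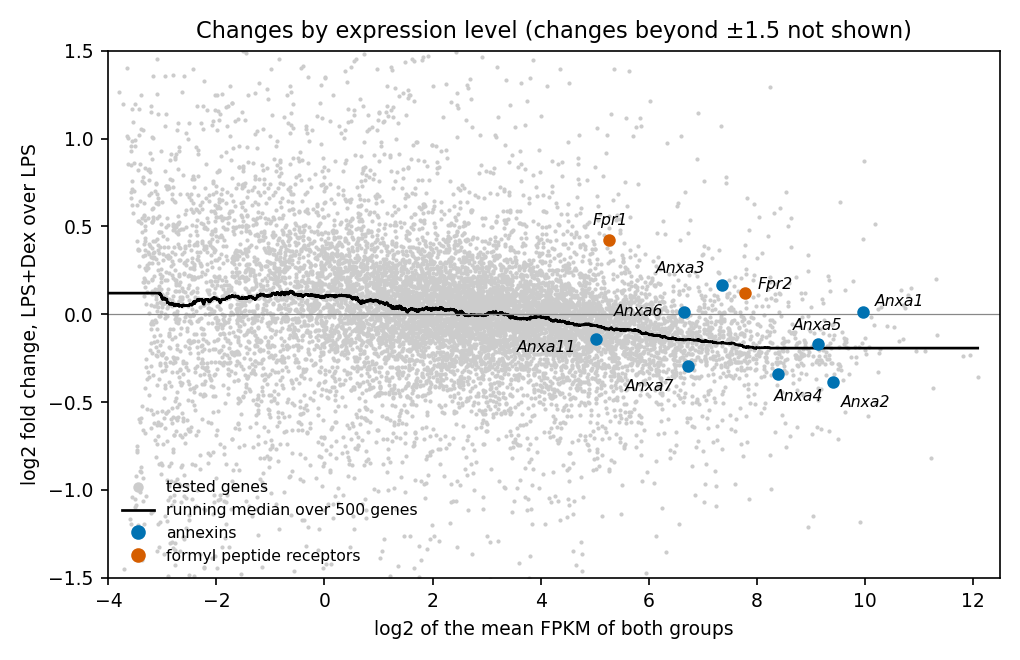
Log2 fold change of LPS+Dex over LPS against the log2 of the mean FPKM of both groups for tested genes (grey), with the running median over 500 genes (black line), the annexins (blue) and the receptors (orange). The line falls to −0.19 at the level of Anxa1, Anxa2, Anxa4 and Anxa5; Fpr1, Fpr2, Anxa3, Anxa6 and Anxa1 lie above it, Anxa2, Anxa4, Anxa7 and Anxa11 below it, and Anxa5 on it.

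Read against 0, 1 of the 8 annexins rose and 5 fell. Read against the trend, 3 were called higher (Anxa1, Anxa3 and Anxa6) and 3 lower (Anxa2, Anxa4 and Anxa7), with a median of −0.029 in place of −0.16. Over all tested genes 39.6% were then called, 18.4% higher and 21.2% lower, against 8 of the 10 members, 5 higher and 3 lower. In this reading the share among genes with at least 30 FPKM in a group was not computed. Nothing particular to the members is therefore read from that count. Fpr1, Fpr2 and Anxa3 were higher, and Anxa2, Anxa4 and Anxa7 lower, in both readings. At the level of Anxa1, Anxa2, Anxa4 and Anxa5 the running median is that of the 500 most abundant tested genes, so there it is flat by construction. The remaining annexin genes were scarce or not seen. Anxa9 was not called at 1.31 and 1.34 FPKM (log2 0.032, SE 0.20, q = 0.918), and Anxa8, Anxa10 and Anxa13 were listed at 0 in both groups of the authors' deposited table.

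The upstream window of Anxa2 is shown because it fell most, and that of the inner of the 2 starts of Anxa4 because, unlike those of other members that fell, it holds the GR core. They cover 250 bases before the start (RefSeq, GRCm38.p6), at chr9:69453433-69453682 (plus strand) for Anxa2 and chr6:86775115-86775364 (minus strand) for Anxa4. Capitals mark the GR core, the TATA box and the motif of AP-1 (TGACTCA), on either strand.
Anxa2: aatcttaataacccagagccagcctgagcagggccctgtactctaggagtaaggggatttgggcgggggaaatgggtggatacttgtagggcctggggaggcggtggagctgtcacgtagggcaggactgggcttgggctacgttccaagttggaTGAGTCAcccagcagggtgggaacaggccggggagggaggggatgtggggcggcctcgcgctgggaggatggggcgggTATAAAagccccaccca
Anxa4: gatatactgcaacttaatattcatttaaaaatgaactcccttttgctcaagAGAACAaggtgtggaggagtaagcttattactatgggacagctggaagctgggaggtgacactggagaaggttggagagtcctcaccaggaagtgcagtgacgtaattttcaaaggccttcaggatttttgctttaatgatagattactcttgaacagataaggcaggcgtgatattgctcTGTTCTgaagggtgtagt
Anxa2 holds an AP-1 motif, read as TGAGTCA on its strand, 95 bases before the start, and TATAAA 17 bases before it. TGACTCA occurs on either strand in 4.46% of all windows. The inner window of Anxa4 holds AGAACA on each strand, 199 and 18 bases before the start, so these letters occur upstream of a gene that rose, Fpr1, and of one that fell. The outer window of Anxa4 and the windows of Anxa5, Anxa7 and Anxa11 hold none of the motifs searched, among which TGACGTCA (CRE), found in 1.55% of all windows, had no match in the windows of the 8 members that have one (all but Anxa3 and Anxa6). The motifs were chosen with these sequences in view.

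Of the 4 genes of S100 proteins that bind annexins, all of them abundant, 2 fell, 2 did not pass and none rose. Since 50.5% of abundant genes were called lower, nothing particular to the S100 genes is read from this count. S100a11, which binds the amino-terminal end of annexin A1, fell from 792 to 499.7 FPKM in the authors' deposited table (log2 −0.67, SE 0.048). It moved apart from Anxa1, with a difference in log2 fold change of −0.68 (95% interval −0.84 to −0.52). A processed pseudogene, Gm12854, shares 41.1% of the stretches of 50 bases in its transcript. S100a4 fell from 1319 to 1132 FPKM (log2 −0.22, SE 0.052), but stood at −0.029 with the trend removed and was then not called. S100a6, at 458 and 437 FPKM, did not pass (log2 −0.069, q = 0.27), although with the trend removed it was called higher at 0.12.

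Of 8 tested receptors for other chemoattractants and for mediators of resolution, 3 rose, 1 fell and 4 did not pass, beside 17.7% higher and 25.2% lower among all tested genes. With the trend removed, 5 were called higher and none lower, beside 18.4% higher and 21.2% lower among all tested genes. C5ar1, the receptor of complement fragment C5a, rose most, from 54.8 to 107.6 FPKM in the authors' deposited table (log2 0.97, SE 0.051), and exceeded Fpr1 in log2 fold change by 0.55 (95% interval 0.41 to 0.69). Cmklr1, the chemerin receptor, rose from 31.3 to 46.1 FPKM (log2 0.56, SE 0.049). Gpr18 rose from 5.20 to 7.83 FPKM (log2 0.59, SE 0.12). C3ar1, the C3a receptor, fell from 216 to 192 FPKM (log2 −0.17, SE 0.060), and stood at 0.0044, of the opposite sign, with the trend removed. Ccrl2 did not pass at 311 and 298 FPKM (log2 −0.061, q = 0.405), nor did Ptafr, the receptor of platelet-activating factor, at 179.7 and 183 FPKM (log2 0.023, q = 0.752). Both were called higher with the trend removed, Ptafr at 0.19 and Ccrl2 at 0.13. Gpr77 (log2 0.52, SE 0.31) and Ltb4r1 (log2 0.22, SE 0.57) did not pass either and were scarce, at 0.125 and 0.180 FPKM and at 0.104 and 0.121 FPKM.

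Of 16 genes of signalling downstream of the formyl peptide receptors, 7 rose, 3 fell and 6 did not pass, beside 17.7% higher and 25.2% lower among all tested genes. The median log2 fold change was −0.0073. With the trend removed 8 were called higher and 1 lower, beside 18.4% higher and 21.2% lower among all tested genes. Before that step, 12.1% of genes with at least 30 FPKM in a group, as Gnai2 and Rac2 had, were higher and 50.5% lower. Pik3cg, the catalytic subunit of the phosphoinositide kinase that G-protein beta-gamma subunits activate, rose from 5.53 to 8.79 FPKM in the authors' deposited table (log2 0.67, SE 0.061). Rac2, a GTPase of the phagocyte oxidase and of cell movement, fell from 139 to 99.6 FPKM (log2 −0.48, SE 0.050). Gnai2, an inhibitory G-protein subunit, did not pass at 318 and 303 FPKM (log2 −0.073, q = 0.309).

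Of the plasminogen system around annexin A2, Serpinb2, Plau and Plaur fell, also with the trend removed, while Plat and Plg were too low for a test. Among all tested genes 25.2% were called lower, and 50.5% of those with at least 30 FPKM in a group, as Plau and Plaur had. No statement on the system as a whole is made from these 3 genes. Serpinb2, an inhibitor of plasminogen activators, fell from 24.3 to 5.24 FPKM in the authors' deposited table (log2 −2.21, SE 0.087). Plau, which encodes urokinase, fell from 33.3 to 15.9 FPKM (log2 −1.06, SE 0.051), and Plaur, its receptor, from 139 to 89.2 FPKM (log2 −0.64, SE 0.048).

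Enzymes that release or convert arachidonic acid moved both ways, with 5 of 12 tested higher, 2 lower and 5 not passing, beside 17.7% higher and 25.2% lower among all tested genes. Pla2g4a, the cytosolic phospholipase A2 that annexin A1 restrains, fell from 68.4 to 40.6 FPKM in the authors' deposited table (log2 −0.75, SE 0.047). Alox15, a lipoxygenase that makes mediators of resolution, rose from 0.113 to 0.240 FPKM (log2 1.09, SE 0.36), a change of 0.16 on the log2(FPKM + 1) scale because of its low level. Ptges, a prostaglandin E synthase, rose from 214 to 314 FPKM (log2 0.55, SE 0.064), and Lta4h did not pass at 5.91 and 5.42 FPKM (log2 −0.13, q = 0.158). Ptgs2 had no test: its status was HIDATA, which Cufflinks gives a locus with too many fragments to process, with 0 in LPS and 246 FPKM in LPS+Dex in the authors' deposited table. Its 0 is therefore not read as a level. Of 10 tested genes of calcium-dependent membrane binding and repair, 3 fell and 7 did not pass, which is near the 25.2% of all tested genes called lower and below the 50.5% of abundant ones. Ahnak, a giant scaffold protein that binds the complex of annexin A2 and S100a10, fell most, from 52.8 to 34.5 FPKM (log2 −0.61, SE 0.12), while Capns1, the small calpain subunit, did not pass at 118 and 113 FPKM (log2 −0.069, q = 0.254).

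**Figure D4:**
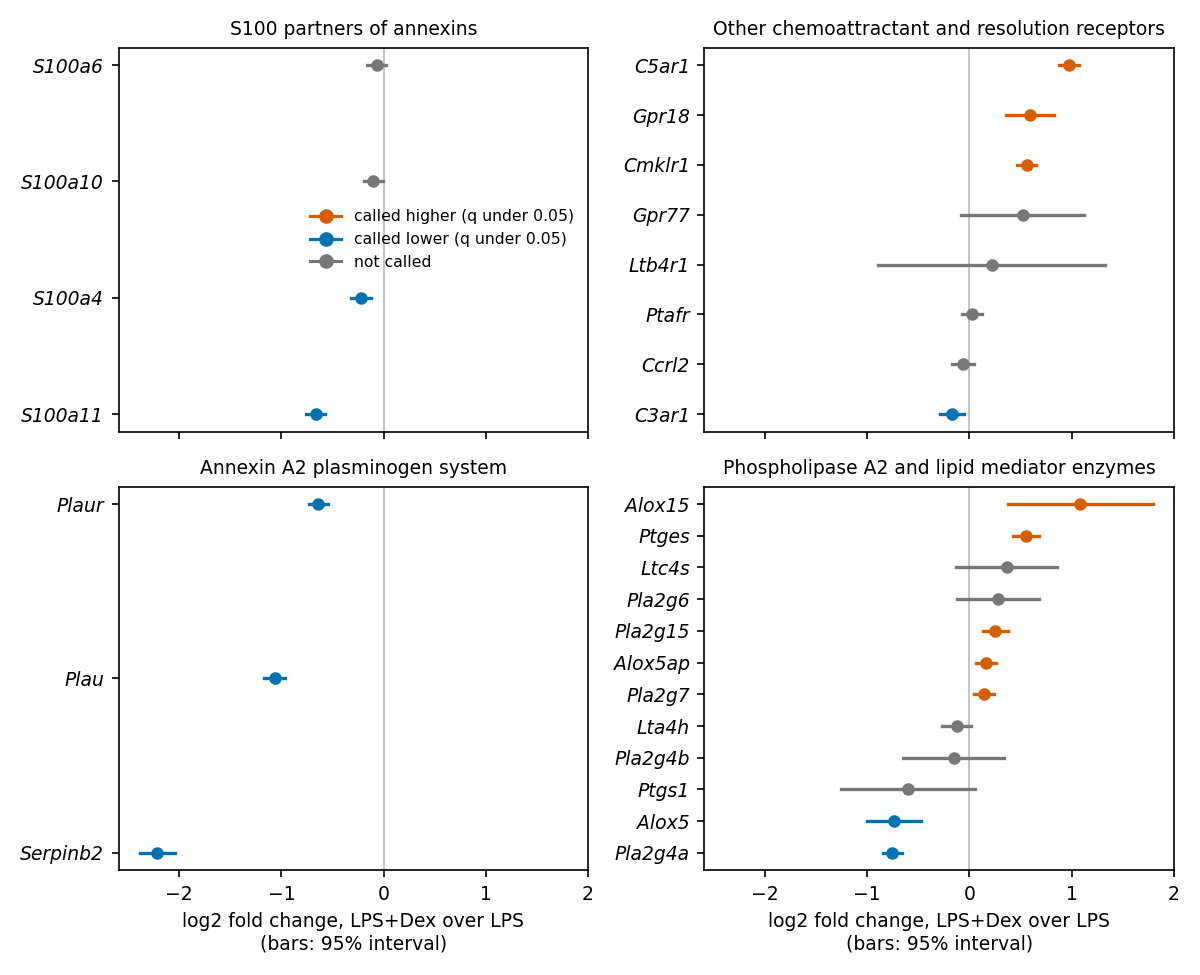
Log2 fold change of LPS+Dex over LPS (points) with 95% intervals (bars) for tested genes of 4 related lists, coloured by the deposited call. C5ar1, Gpr18 and Cmklr1 rise among the receptors, the 3 plasminogen system genes plotted fall, and S100a11 falls most among the S100 genes.

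Several annexins and both receptors are also abundant in neutrophils, and markers of other cells were therefore read beside them. Of 7 tested neutrophil markers 2 rose, led by Mmp8 from 4.35 to 7.10 FPKM (log2 0.71, SE 0.070), and 5 fell, led by Ltf from 0.448 to 0.144 FPKM (log2 −1.64, SE 0.28; −0.34 on the log2(FPKM + 1) scale), by the authors' deposited table. Among all tested genes 17.7% were higher and 25.2% lower. The summed level of the neutrophil markers was 134 FPKM in LPS and 114 in LPS+Dex. Csf3r, the most abundant in both groups, fell from 72.5 to 44.1 FPKM (log2 −0.72), S100a8 rose from 27.5 to 40.9 FPKM (log2 0.57) and S100a9 fell from 24.0 to 18.8 FPKM (log2 −0.35), so that the main contributors to the sum did not move one way. The granulocyte genes Mpo, Elane, Cxcr2 and Retnlg were below 0.1 FPKM in both groups and had no test. The part of the neutrophil markers in the changes of the receptors and annexins was not tested. Macrophage markers were abundant, with 3 of 7 tested higher and 1 lower. Among tested genes with at least 30 FPKM in a group, 12.1% were higher and 50.5% lower. Itgam rose from 137 to 177 FPKM (log2 0.37, SE 0.061), Emr1 fell from 458 to 388 FPKM (log2 −0.24, SE 0.067), and Cd14 did not pass (log2 0.15, q = 0.145). With the trend removed, Emr1 was at −0.046 and not called, and Cd14 was called higher at 0.34. In that reading 4 macrophage markers were higher and none lower, beside 18.4% higher and 21.2% lower among all tested genes. Lyz2 had the status HIDATA, with 0 in both groups, and no level is read from it. Markers of other lineages were scarce, with summed levels given here for LPS and then LPS+Dex. Those of T and NK cells summed to 5.52 and 2.26 FPKM, with 2 tested and both lower. Most of that sum was Lck alone, at 5.01 and 1.90 FPKM (log2 −1.40). Cd3d, Cd3e, Cd3g, Cd8a, Ncr1 and Klrb1c were too low for a test. The sums were 0.145 and 0.149 for B cells (1 tested, Cd79b, not called) and 0.0457 and 0.0450 for mast cells and basophils (none tested). For eosinophils they were 1.396 and 0.591 (2 tested, both lower, Prg2 the more, at log2 −1.44). Stromal cell markers summed to 2.36 and 2.70 (2 tested, Dcn higher at log2 0.85 and Pdgfrb not called). Of 9 genes used as reference for the hormone, 4 rose, 2 fell and 3 did not pass, beside 17.7% higher and 25.2% lower among all tested genes. Cd163 rose most but from a low level, 0.0632 to 0.241 FPKM (log2 1.93, SE 0.33; 0.22 on the log2(FPKM + 1) scale). Tsc22d3, Sgk1 and Per1 rose by log2 1.47, 1.22 and 0.69. Zfp36, which encodes a protein that destabilises inflammatory mRNAs, fell from 717 to 457 FPKM (log2 −0.65, SE 0.059). Dusp1 (log2 0.079), Fkbp5 (log2 −0.15) and Klf9 (log2 −0.31) did not pass, as Anxa1 did not. With the trend removed, Dusp1 was called higher at 0.24, and Fkbp5 (−0.18) and Klf9 (−0.42) were called lower. The receptor gene Nr3c1 fell and stood at 32.0 and 28.6 FPKM (log2 −0.16, SE 0.048), a level that does not check the point mutation. Its change was −0.099 and not called with the trend removed.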

How the data were processed

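RNA was sequenced from 6 samples, 3 per group, grouped by their titles. The submitters' processing notes name build mm9, Cufflinks 2.0.2, TopHat 1.4.1 and CASAVA. The sources used here do not give their roles, the annotation, the scaling between libraries or the way replicates were combined. The authors deposited FPKM values, 1 per gene and group, read as such from the file's header and the named tools. The p-value and q-value of each gene are those the authors deposited. The p-value lay within 0.001 of the 2-sided normal tail of the deposited test statistic for all tested genes without a stand-in for infinity. Such a limit does not check p-values far below it. With group values alone, no test on samples was run and a level has no interval.

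From these values were computed, with Python 3.11.15, numpy 2.4.6, pandas 2.3.3 and scipy 1.17.1, the implied SE, 95% intervals, and a running median of the log2 fold change over 500 genes ordered by mean FPKM. The change left after subtracting it was divided by the implied SE and adjusted by Benjamini-Hochberg over 11745 genes, a step tested on simulated data. In the simulation few genes changed, in either direction and by more than any member did here. It cannot show how the step fares where many abundant genes change one way. Stretches of 50 bases were compared between GENCODE M21 transcripts, and motifs were searched in RefSeq promoter windows, found for 8 of the 10 genes (all but Anxa3 and Anxa6). The members and the gene lists (other annexins and receptors, S100 partners, chemoattractant receptors, receptor signalling, membrane repair, lipid mediators, plasminogen system, hormone reference genes and cell type markers) were chosen with earlier results of these data known. Named were all members, other annexins and receptors and S100 partners, and of each other list the largest called rise, the largest called fall and the uncalled gene with the highest mean; Cmklr1, Gpr18, Gpr77, Ltb4r1, Ptafr, Plau, Plaur, Ptges, Ptgs2, Plat, Plg, Lyz2, Csf3r, S100a8, S100a9, the granulocyte genes and the remaining hormone reference genes were added after their values were seen. A gene of the plasminogen list is not reported here and was left out of its counts. The call, the adjustment, the filter, the scaling and the pseudocount were varied.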

Additional observations from a re-analysis of the deposited data

How the results depend on the processing

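Under a q of 0.1, recomputed Benjamini-Hochberg adjustment, minimum values of 1 or 5 FPKM and centring on the median of expressed genes (−0.025), all 10 genes kept their direction and call, and a pseudocount of 1 or 0.1 moved no fold change by more than its SE. Once the trend on expression level was taken out, the 3 higher and 5 lower calls became 5 and 3, and Anxa5 changed sign to 0.021. A q of 0.01 left 2 higher and 3 lower, Bonferroni adjustment 1 and 3, and a minimum of 1.5-fold 0 and 0, where the same test gave 3 and 5 at any size of change. Over all tested genes, 2077 were higher and 2968 lower; Bonferroni adjustment left 884 and 1540, a minimum of 1.5-fold 591 and 646, and a minimum of 5 FPKM 1114 higher. In the related lists 51 genes were called, 27 with Bonferroni adjustment and 24 at 1.5-fold. No share of tested genes was computed over these lists together, so whether 51 is many or few is not read. Of the counts by list, direction and setting, 48 moved by over 1.5 times or went to or from 0. Adjusted p values over these settings ran from 8.53e-21 to 1.04e-11 for Fpr1 and from 2.05e-10 to 0.00299 for Anxa2. They reached 1.0 under Bonferroni adjustment for Anxa1, Anxa3, Anxa5, Anxa6, Anxa11 and Fpr2. For Anxa1 and Anxa6 the lowest, with the trend removed, were 0.00685 and 0.00856. No paired analysis was possible because the table holds 1 value per group; leaving out a replicate and count models were not run for the same reason. Depth is unknown and limits no statement by a known amount.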

Other observations

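Genes beside the receptor pair moved both ways. Within 100 kb of Fpr1 and Fpr2 the authors' deposited table lists 6 other genes, of which 3 are microRNA genes listed at 0 without a test. Has1, a hyaluronan synthase gene (chromosome 17, 17980289 to 17992152, mm9), fell from 1.63 to 0.969 FPKM (log2 −0.75, SE 0.14, q = 2.47e-07). Ncrna00085 (chromosome 17, 17967938 to 17976035) rose from 1.38 to 2.36 FPKM (log2 0.77, SE 0.17, q = 1.58e-05), and Fpr3 was not called. The region was chosen after its values were seen.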
